A study of Mus musculus with 12 samples.

Results

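Mammary tumours of mice that had borne several litters (multiparous) were set against tumours of mice that had never borne one (nulliparous), by the parity given in the sample descriptions. All 12 tumours of the series entered: 4 multiparous and 8 nulliparous, with 2342 and 5024 of the 7366 cells that had at least 200 detected genes. Every animal was an untreated FVBN mouse with the MMTV-Cre and HER2 Crainbow transgenes, in which Cre under the mouse mammary tumour virus promoter, active mainly in mammary epithelium, switches on a form of HER2 tagged with a fluorescent colour. The nulliparous tumours carried p95 HER2 (5 tumours, 15, 16, 17, 17 and 20 weeks) or d16 HER2 (3 tumours, 16, 17 and 21 weeks), and 7 of these 8 were labelled metaplastic or invasive and 1, d16 tumour 1, solid nodular. The multiparous tumours were taken at 17, 17, 16 and 16 weeks, with Mixed growth in tumours 1 and 3 and solid nodular growth in tumours 2 and 4. Their form of HER2 was labelled unknown, which leaves parity and transgene inseparable: the 2 cannot be told apart here. No multiparous tumour was labelled metaplastic or invasive. Of the nulliparous tumours, p95 tumour 2 and d16 tumour 2 share a title number, as do p95 tumour 4 and d16 tumour 3. Nothing in the labels says whether tumours came from separate animals, so p-values measure the spread between these samples.

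Pregnancy drives the mammary epithelium through alveolar growth, milk secretion and, after weaning, involution, in which the alveoli regress and macrophages and other immune cells enter the gland. The parous gland is known to keep a memory of this cycle in its hormone-responsive cells. In tumours, T cells recognise peptides on MHC molecules. Interferons raise MHC presentation, and interleukin 10, made largely by macrophages and regulatory T cells, restrains these responses.

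Cells were captured on a ddSEQ instrument and read from the 3′ end of transcripts as UMIs (unique molecular identifiers, 1 per captured RNA molecule). The kept cells of a tumour held between 104893 and 4394398 UMIs, so p95 tumour 1 and d16 tumour 1, the 2 shallowest, gave the least precise values: 3 UMIs there equal 25.3 and 11.6 CPM (UMIs per 1e6, scaled by TMM), against 0.703 to 3.09 CPM in the other tumours. The median UMIs per kept cell were 3574, 4536, 2682.5 and 1728 in multiparous tumours 1 to 4, and 449, 1543.25 and 3810 (lowest, median and highest) in the nulliparous tumours. The difference was within the spread (two-sided exact permutation p = 0.117). All 4 multiparous files and 4 nulliparous ones share a layout in which some gene names had become dates. Tumours of that layout were also compared alone. Keratin and other luminal markers were present in every tumour (summed level 5330 to 35000 CPM in multiparous and 6340 to 25300 CPM in nulliparous tumours).

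Between whole tumours, 3 immune genes were lower in the multiparous group, and each is a part of interleukin signalling. They were Il10, the gene of the anti-inflammatory cytokine interleukin 10 (chromosome 1, 131019845 to 131024974, GRCm38), Il10ra, its ligand-binding receptor chain (chromosome 9, 45253837 to 45269149), and Il21r, the receptor of the T cell cytokine interleukin 21 (chromosome 7, 125603429 to 125633570). A further 6 genes were higher, of which 5 are processed pseudogenes and are described below with their sequences. These 9 calls, at an adjusted p under 0.05 in edgeR's quasi-likelihood test with Benjamini-Hochberg adjustment, were made over 11242 genes, which is 0.0534% of genes called higher and 0.0267% called lower. DESeq2 on the same sums called 25 higher and 132 lower. At an unadjusted p under 0.05, 2.72% of genes were higher and 4.89% lower.

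Il10 stood at 34.3, 41.9, 16.4 and 18.6 CPM in multiparous tumours 1 to 4, and at 59.3, 109 and 172 CPM (lowest, median, highest) in the nulliparous tumours. The groups did not overlap, and Il10 fell by 1.94 ± 0.32 on the log2 scale (SE, n = 4 and 8, edgeR adjusted p = 0.042). Il10ra stood at 9.86, 8.17, 13.1 and 9.28 CPM against 22.2, 28.1 and 40.0 CPM, and fell by 1.55 ± 0.26 (edgeR adjusted p = 0.042). Again every multiparous tumour lay below every nulliparous tumour. Il21r stood at 8.499, 1.79, 6.10 and 4.12 CPM against 15.4, 42.4 and 80.8 CPM, with a change of -3.05 ± 0.50 (edgeR adjusted p = 0.042) and no overlap. Such a separation was seen, with the multiparous tumours below, in 0.605% of all genes tested, and with them above in 0.552%. In sums over whole tumours, fewer cells of a type and less RNA per cell cannot be told apart. The 3 calls sit near the threshold. In the edgeR fits that left out 1 tumour, all 3 held without d16 tumour 1. Il21r was otherwise called in those fits only without p95 tumour 3 or p95 tumour 4, and Il10ra only without the same 2. Il10 was otherwise called in them only without multiparous tumour 2 or p95 tumour 2. The adjusted p reached 0.196, 0.205 and 0.215 when another tumour was left out. With the tumours that share a title number summed, which leaves 6 nulliparous samples, none of the 3 was called (edgeR adjusted p = 0.057 for Il10 and Il21r and 0.0950 for Il10ra). With growth pattern (solid nodular or not) as a covariate edgeR called 0 genes (1238 at an unadjusted p under 0.05). In that fit Il21r, Il10ra and Il10 changed by -2.60, -1.46 and -1.95. The covariate joins Mixed with metaplastic or invasive tumours, so it cannot adjust for the difference between those labels.

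**Figure D1:**
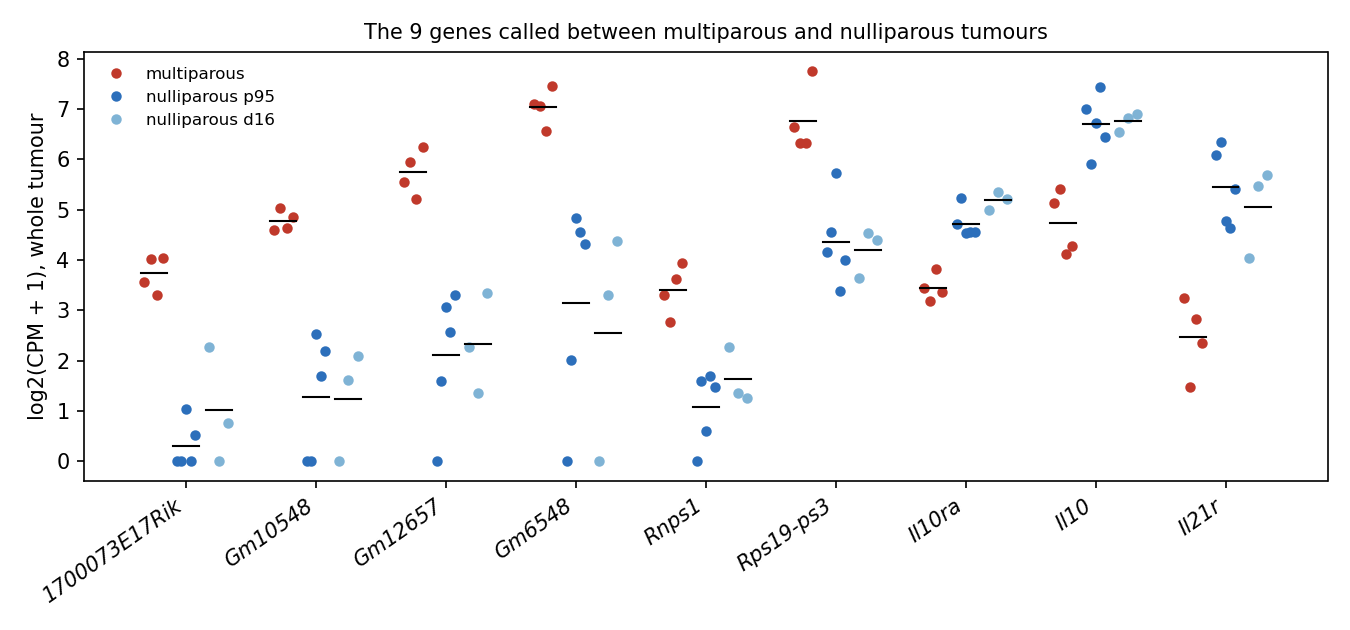
Level of the 9 called genes in each tumour, as log2(CPM + 1) of UMIs summed over all kept cells; points are tumours and black bars group means. The 4 multiparous tumours lie above every nulliparous tumour for 6 genes and below for Il10ra, Il10 and Il21r, and p95 and d16 tumours have separate colours and means.

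Set against the p95 tumours alone, Il10, Il10ra and Il21r were lower by log2 values of -1.94, -1.35 and -3.14. Set against the d16 tumours alone, the values were -1.92, -1.81 and -2.89. The 2 comparisons share the multiparous tumours, and edgeR called 0 genes in either after adjustment (847 and 547 genes at an unadjusted p under 0.05). Within the shared file layout the values of Il10, Il10ra and Il21r were -2.07, -1.36 and -2.79, and none was called (edgeR adjusted p = 0.147 for each). With layout as a covariate the adjusted p was 0.0747, 0.173 and 0.139.

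Most Il10 UMIs were counted in macrophage-like cells, with 1355 in nulliparous and 210 in multiparous tumours. Epithelial-like cells, from which far more UMIs were read, held 55 and 9. Macrophage-like cells are those of clusters marked by Lyz2, C1qb and Csf1r, and every tumour had at least 28 of them. Within these cells Il10 stood at 275, 767, 57.1 and 188 CPM in multiparous tumours 1 to 4 and at 259, 811 and 1620 CPM in nulliparous tumours. The groups overlapped and the difference of -1.43 ± 0.53 did not pass (edgeR adjusted p = 0.41). Il21r in macrophage-like cells stood at 66.3, 29.5, 82.4 and 46.9 CPM against 56.7, 157 and 223 CPM (log2 difference -1.50 ± 0.35, edgeR adjusted p = 0.15). Il10ra differed there by -0.61 ± 0.38 (edgeR adjusted p = 0.69). T or NK-like cells held 212 Il21r UMIs of 439398 in nulliparous and 10 of 42903 in multiparous tumours, against 274 of 1892239 and 30 of 614670 in macrophage-like cells, so Il21r was denser per UMI in T or NK-like cells.

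The share of T or NK-like cells was 3.22, 0.274, 0.853 and 2.62% of kept cells in multiparous tumours 1 to 4, and 1.93, 5.88 and 16.8% in the nulliparous tumours. Multiparous tumours 1 and 4 overlap the nulliparous range, and the difference of -5.66 percentage points did not pass after adjustment over 8 classes (two-sided exact permutation p = 0.0283, adjusted p = 0.215). Macrophage-like cells made up 5.86, 11.9, 12.5 and 8.14% against 7.12, 16.6 and 24.3% (exact permutation p = 0.0808, adjusted p = 0.215). Pericyte-like cells, which wrap small vessels, made up 2.64, 5.62, 2.05 and 4.94% against 0.197, 0.696 and 5.996% (exact permutation p = 0.0606, adjusted p = 0.215). Here p95 tumour 4 alone lies above the multiparous values, and without it the adjusted p was 0.0485 (exact permutation, difference 3.0 points). That fit leaves out the tumour that goes most against the difference. Over all classes and alternative settings it was the 1 share value that passed, and 143 did not change. None of the other 5 classes differed beyond the spread between tumours (exact permutation p of 0.473 to 0.844). These are shares of captured cells, and in multiparous tumour 4, 64.8% of cells lay in clusters that could not be named. Of its cells, 61.6% lay in a cluster led by Slc6a15, Krt23 and Nkd1 that held at most 0.137% of the cells of any other tumour.

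**Figure D2:**
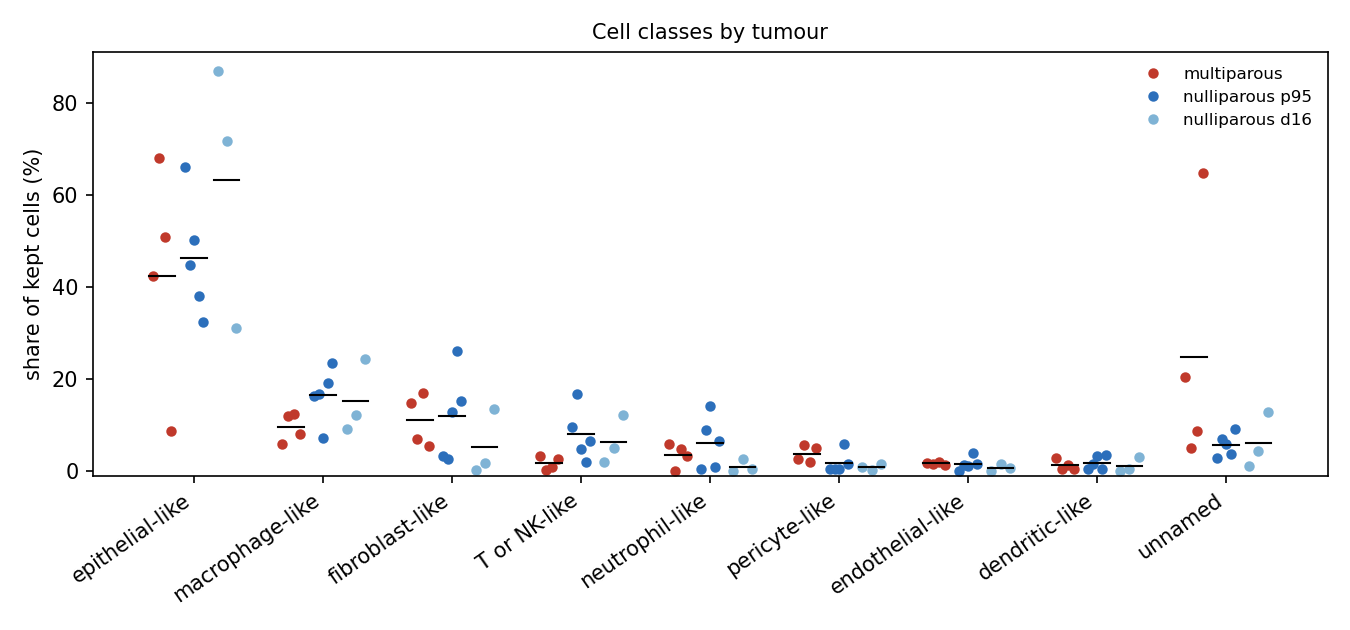
Share of kept cells (%) in each cell class, by tumour; points are tumours and black bars group means. Most multiparous tumours sit low for T or NK-like and for macrophage-like cells and high for pericyte-like cells, with overlap in each class, and the unnamed share reaches 64.8% in multiparous tumour 4.

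Antigen presentation genes were lower in multiparous tumours as a group, although no member passed the adjusted threshold. All 12 tested members of the MHC class II list were lower, 11 of them at an unadjusted p under 0.05, with a median log2 difference of -1.67 against 0.02 over all genes tested. Cd74, the invariant chain that guards the class II groove, stood at 252, 151, 204 and 118 CPM against 197, 1096 and 1934 CPM (log2 difference -2.56 ± 0.52, edgeR adjusted p = 0.11). H2-Aa, a class II alpha chain, stood at 859, 514, 877 and 268 CPM against 1046, 2611 and 4590 CPM (-2.06 ± 0.48, edgeR adjusted p = 0.19). H2-Aa, H2-DMb1 and H2-Ob, the last 2 being chains of the peptide exchange machinery, did not overlap between groups, whereas for Cd74 1 nulliparous tumour lay within the multiparous range.

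All 16 tested members of the MHC class I list were lower too, 8 of them at an unadjusted p under 0.05, with a median of -0.73. B2m, the light chain shared by class I molecules, stood at 2454, 2023, 2848 and 1442 CPM against 2732, 4616 and 6726 CPM (log2 difference -0.98 ± 0.31, edgeR adjusted p = 0.34). Psmb9, an interferon-inducible subunit of the immunoproteasome, differed by -1.48 ± 0.36 (edgeR adjusted p = 0.199) and Psmb8, another subunit, by -1.16 ± 0.34 (edgeR adjusted p = 0.31). The class I and class II medians kept their sign in all 26 alternative settings, with ranges of -0.89 to -0.45 and -1.79 to -1.41.

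Of 36 tested interferon response genes, 35 were lower, 19 at an unadjusted p under 0.05, with a median log2 difference of -1.10. Cxcl10, a chemokine that draws in activated T cells, stood at 13.6, 12.5, 15.0 and 14.4 CPM against 20.3, 72.6 and 160 CPM. The groups did not overlap (-2.40 ± 0.52, edgeR adjusted p = 0.14). Isg15, a ubiquitin-like modifier, stood at 12.9, 5.62, 11.7 and 12.4 CPM against 12.9, 44.9 and 127 CPM (-2.04 ± 0.55, edgeR adjusted p = 0.25). For Cxcl10 the 4 multiparous tumours lay close together, while for Isg15 multiparous tumour 2 lay below the other 3. Irf7 and Rtp4 differed by -1.81 ± 0.50 and -1.57 ± 0.44. The median was -0.81 against the p95 tumours alone, -1.27 against the d16 tumours alone and -0.62 within the shared file layout.

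The promoters of many of these genes hold the core of the interferon-stimulated response element, GAAA, any 2 bases and GAAA again, on 1 strand or the other. Among 28 tested interferon list members with a promoter of 300 bases in the RefSeq table (GRCm38.p6, 250 bases before to 50 after the start site), 17 held it (60.7%), against 1079 of 27025 genes (4.0%) and 313 of the 8566 genes tested here (3.7%). In the class I list it was in 3 of 14 (21.4%) and in the class II list in 1 of 9 (11.1%). A match is a description of the letters and not a site. The stretches below are from the 3 interferon list members with the smallest p whose core lies wholly before the start site, 5′ to 3′ on the strand of the gene, with the core in capitals.
Cxcl10: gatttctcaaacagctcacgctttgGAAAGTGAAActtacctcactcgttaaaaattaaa
Isg15: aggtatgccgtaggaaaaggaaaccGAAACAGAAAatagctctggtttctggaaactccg
Bst2: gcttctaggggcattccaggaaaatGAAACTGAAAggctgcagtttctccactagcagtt
They lie on the minus strand at chr5:92349068-92349127 for Cxcl10, chr4:156200850-156200909 for Isg15 and chr8:71537562-71537621 for Bst2, which encodes the virus-tethering protein tetherin. The cores begin 213, 66 and 124 bases before the start site, and the 3 genes differed by log2 values of -2.40, -2.04 and -2.05.

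Genes of T and NK cells had the lowest list median in whole tumours, -2.19, with all 15 tested members lower and 12 at an unadjusted p under 0.05. Cd3d, a chain of the T cell receptor complex, stood at 1.70, 0.255, 0.00 and 3.09 CPM against 1.80, 18.4 and 84.9 CPM (-4.57 ± 1.08, edgeR adjusted p = 0.18). All 18 tested macrophage genes were lower, 12 at an unadjusted p under 0.05, with a median of -1.13. Tyrobp, a signalling adaptor of myeloid cells, stood at 149, 117, 174 and 179 CPM against 228, 344 and 798 CPM, without overlap (-1.38 ± 0.34, edgeR adjusted p = 0.21). The 12 macrophage class markers summed to 1910 to 4700 CPM in multiparous and 2080 to 18100 CPM in nulliparous tumours. The 11 T and NK class markers found in the tables summed to 13.4 to 72.9 CPM and 44.5 to 543 CPM. Their part in the lower MHC, interferon and interleukin genes of whole tumours was not tested. Within a cell class, the lists are given below.

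Among 25 cytokine receptor genes 23 were lower, with a median of -0.53 (-0.33 without multiparous tumour 4), 2 calls (Il10ra and Il21r) and 3 members without overlap. Csf2ra, the receptor chain for GM-CSF, stood at 48.6, 42.4, 53.5 and 45.3 CPM against 74.1, 112 and 186 CPM (-1.29 ± 0.27, edgeR adjusted p = 0.11). Among 13 tested suppression and checkpoint genes 11 were lower, with a median of -0.99 and 1 call (Il10). Ido1, an enzyme that depletes tryptophan, stood at 0.340, 0.255, 0.00 and 0.00 CPM against 0.00, 14.2 and 25.3 CPM (edgeR adjusted p = 0.14). Cd86, a costimulatory ligand, differed by -1.65 ± 0.43 and Pdcd1, which encodes PD-1, by -2.24 ± 0.80. Uba7, the enzyme that activates Isg15, Cxcr4, a chemokine receptor, Apobec1, a cytidine deaminase, Ccl4, a chemokine, and Ncf4, a subunit of the phagocyte oxidase, completed the 10 lower genes with the smallest p. They differed by -1.30, -1.59, -1.55, -2.42 and -1.33, with edgeR adjusted p of 0.11, and none overlapped between groups.

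**Figure D3:**
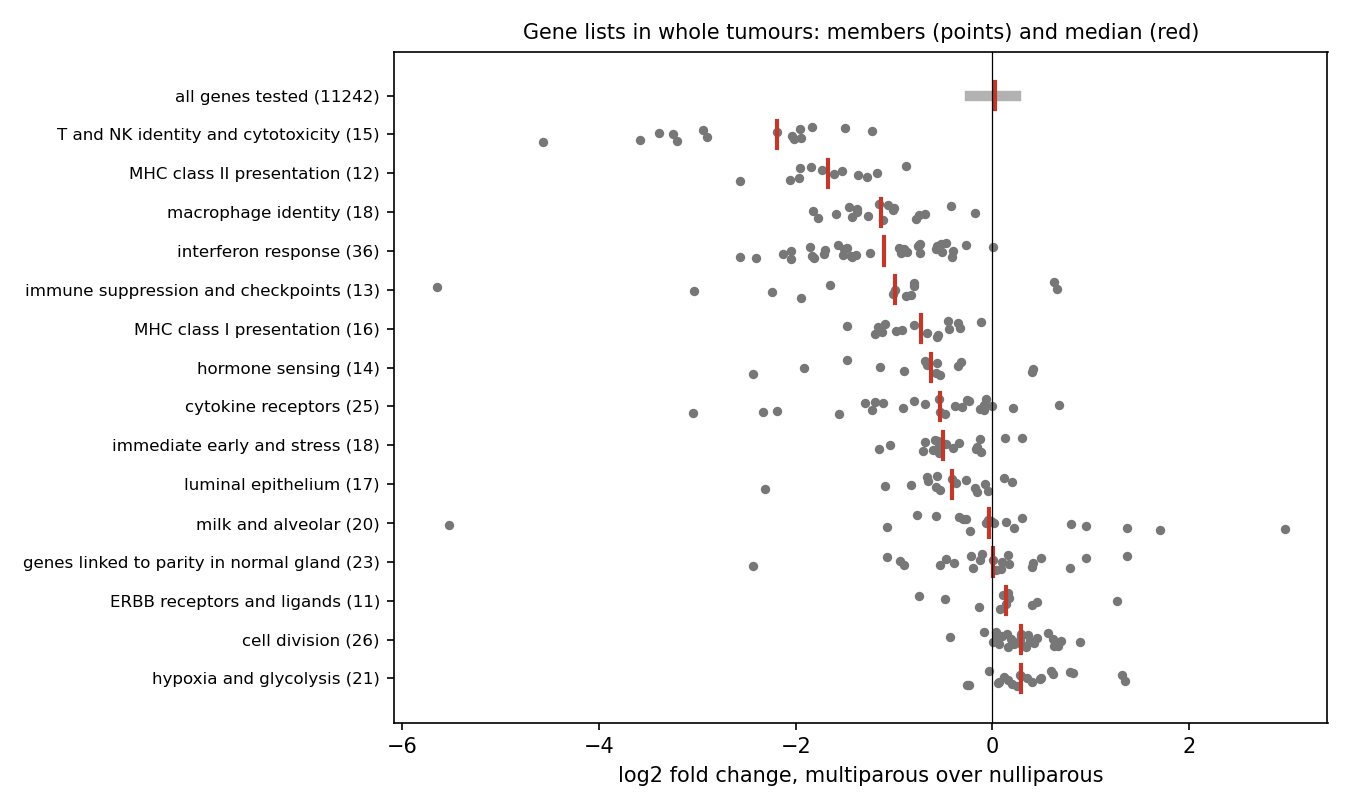
Log2 fold change of each tested member (grey points) of 15 gene lists in whole tumours, with the list median in red and the number tested in brackets; the grey bar of all genes spans their middle 50%. Medians of the immune lists lie from -2.19 to -0.53 and that of all genes at 0.02.

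In epithelial-like cells, tested over all 12 tumours and 9596 genes, edgeR called 0% of genes higher and 0% lower, with 0.875% higher and 2.62% lower at an unadjusted p under 0.05, while DESeq2 called 5 higher and 5 lower. The interferon list was lower in these cells as well: 31 of 31 tested members, 17 at an unadjusted p under 0.05, with a median of -1.27 against -0.03 over all genes. All 16 class I genes were lower with a median of -0.76, and all 7 class II genes with a median of -1.74. Beside them, 9 of 9 tested macrophage genes were lower in epithelial-like cells with a median of -1.21, and free RNA was not removed, so its part in the class II values was not tested. Cd74 itself stood at 5.25, 10.15, 3.94 and 0.00 CPM in epithelial-like cells against 12.9, 29.7 and 159 CPM. Multiparous tumour 4 contributed 30 epithelial-like cells with 23869 UMIs, where 3 UMIs equal 84.5 CPM (40.7 CPM in p95 tumour 1, the next shallowest), so its 0.00 CPM does not place it below the nulliparous tumours. The cluster led by Slc6a15 and Krt23 that held 61.6% of the cells of this tumour was closest to the luminal markers. It stayed unnamed and is in neither these sums nor the epithelial-like share. B2m stood at 2147, 1612, 3070 and 732 CPM against 2159, 4030 and 6656 CPM (log2 difference -1.16 ± 0.42, not called by edgeR). Without multiparous tumour 4 the interferon, class I and class II medians were -1.20, -0.66 and -1.77. The epithelial-like cells were spread differently over clusters in the 2 groups: 28.1% of the multiparous ones lay in a cluster led by Comp and Gpx2 and 16.9% in one led by Stmn2 and Msln, while 22.8% of the nulliparous ones lay in a cluster led by Spp1 and Wnt5b and 18.1% in one led by Rn45s and Ifi27l2a. A small epithelial-like cluster led by interferon response genes (Cxcl9, Igtp and Cxcl11) held 2 multiparous cells (0.18%) and 50 nulliparous cells (2.0%), 25 of them from d16 tumour 3. Its part in the lower interferon list was not tested.

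Of the epithelial-like genes with the smallest p, 4 are processed pseudogenes and the fifth is Rasd1, a small GTPase induced by glucocorticoids. Rasd1 stood at 5.25, 6.77, 2.37 and 0.00 CPM against 9.40, 24.3 and 54.3 CPM (-2.35 ± 0.45, edgeR adjusted p = 0.20). Multiparous tumours 1 to 3 lay below every nulliparous tumour, and the 0.00 CPM of multiparous tumour 4 is under its floor of 84.5 CPM. With that value taken as it stands, 0.344% of epithelial-like genes had the multiparous tumours below without overlap and 0.24% above.

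In macrophage-like cells, 3393 genes were tested and 1 was called, the pseudogene Gm6548 (0.0295% called higher, 0% lower), while DESeq2 called 2 higher and 6 lower. At an unadjusted p under 0.05, 3.89% were higher and 4.39% lower, and 0.589% lay above and 0.442% below without overlap. The 10 tested class II genes were all lower within macrophage-like cells, with a median of -0.68 and 4 at an unadjusted p under 0.05. H2-Aa stood at 10980, 8228, 9092 and 2568 CPM against 10890, 17040 and 24130 CPM (-1.15 ± 0.34, edgeR adjusted p = 0.25), and Cd74 differed by -1.67 ± 0.39 (edgeR adjusted p = 0.15). Multiparous tumour 4 was the lowest for both, and without it the class II median was -0.33 (9 of 11 lower). The macrophage identity list had a median of -0.30 there (-0.46 without multiparous tumour 2, -0.13 without multiparous tumour 3), with 13 of 18 members lower. Lyz1, a lysozyme, stood at 123, 251, 304 and 93.8 CPM against 0.00, 41.5 and 101 CPM (1.86 ± 0.43, edgeR adjusted p = 0.15). It shares sequence with Lyz2, so the split of reads between them is uncertain. Tmem43, an inner nuclear membrane protein, differed by 1.52 ± 0.33 (edgeR adjusted p = 0.15).

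In fibroblast-like cells, 3 multiparous and 5 nulliparous tumours had at least 20 cells and 6111 genes were tested. A cluster of 581 cells led by Mmp13 and Crabp1, closest to the fibroblast markers, stayed unnamed and is in neither these sums nor the fibroblast-like share. It held 20.5% of the cells of multiparous tumour 1, of which 14.8% were fibroblast-like. At Leiden resolution 2, clusters with these leading genes were named fibroblast-like. The called genes were Gm6548 and Vcam1, both higher (0.0327% called higher, 0% lower), while DESeq2 called 8 higher and 4 lower. Vcam1, the adhesion molecule that holds leukocytes by their integrins (chromosome 3, 116109949 to 116129688), stood at 191, 189 and 323 CPM in multiparous tumours 1 to 3. In the nulliparous tumours Vcam1 ranged from 15.5 to 60.4 CPM, with a median of 49.9 CPM, so the groups did not overlap (2.34 ± 0.34, edgeR adjusted p = 0.0425). The Vcam1 call ended without multiparous tumour 1 or 3, p95 tumour 2, d16 tumour 3 or p95 tumour 5, with adjusted p of 0.0589, 0.258, 0.0894, 0.115 and 0.258. It also ended when cells were clustered at Leiden resolution 2 (1.95, edgeR adjusted p = 0.22). In whole tumours Vcam1 differed by -0.68 ± 0.59. Stx11, a vesicle fusion protein, differed by 1.30 ± 0.24 (edgeR adjusted p = 0.134). With 3 against 5 tumours, 4.12% of genes lay above and 2.99% below without overlap, and 5.25% were higher and 4.24% lower at an unadjusted p under 0.05. The interferon list had a median of -0.15 in fibroblast-like cells (7 of 13 lower) and the class I list 0.13 (5 of 11 lower). Of the class II genes 4 of 5 were lower, with a median of -1.64. Cd74 rested there on 4 UMIs in multiparous and 73 in nulliparous tumours, and the part of free RNA was not tested. Single tumours moved the interferon median: in macrophage-like cells, where it was -0.95, to -0.28 without d16 tumour 2 and -1.57 without multiparous tumour 2, and in fibroblast-like cells to 0.14 without p95 tumour 4 and -0.56 without multiparous tumour 2. The class I median in fibroblast-like cells was -0.18 without multiparous tumour 2, and the class II median -1.07 without d16 tumour 3. Whether these medians differ between cell classes was not tested.

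**Figure D4:**
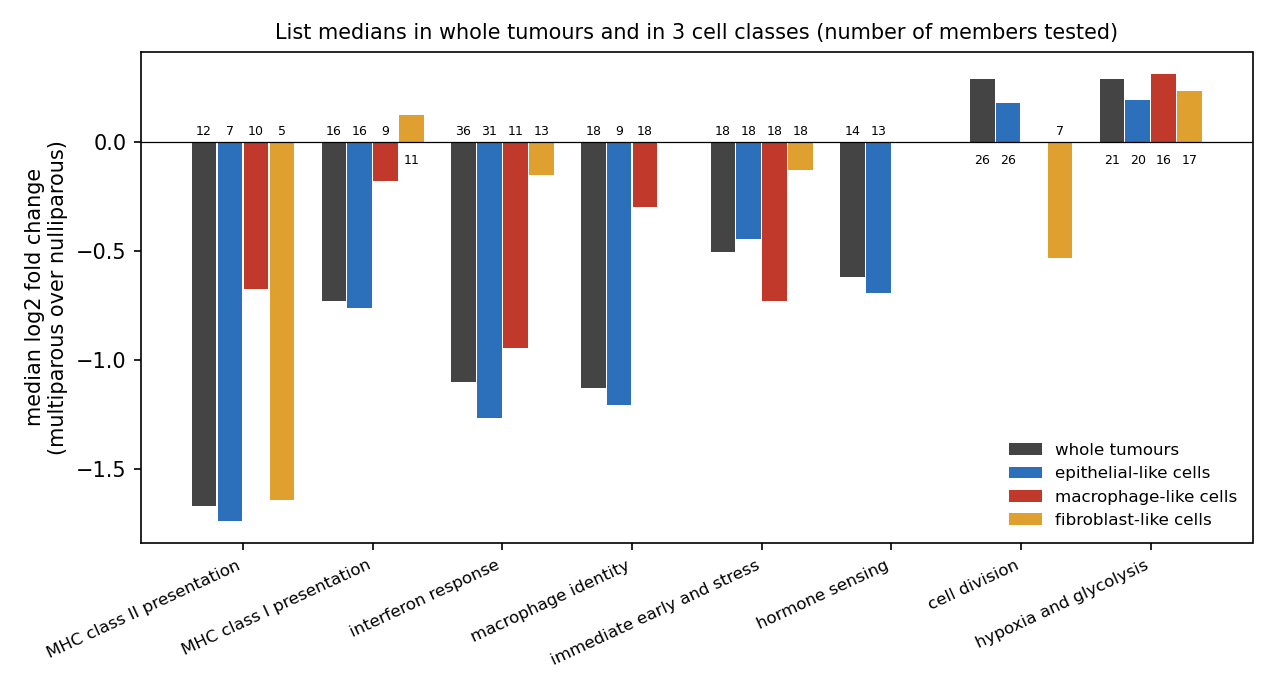
Median log2 fold change (bars) of 8 gene lists in whole tumours and in 3 cell classes, where at least 5 members were tested (number beside each bar). The interferon median is -1.10, -1.27 and -0.95 in whole tumours, epithelial-like and macrophage-like cells, and -0.15 in fibroblast-like cells, where single tumours turn its sign.

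Hormone sensing genes, which mark the luminal cells that receive ovarian hormones, were lower in 12 of 14 tested members in whole tumours (median -0.62) and in 13 of 13 in epithelial-like cells (median -0.69), with no member called. Without multiparous tumour 1 these medians were -1.08 and -1.09, and against the d16 tumours alone 8 of 12 were lower in whole tumours (median -0.41). Pgr, the progesterone receptor, stood at 1.36, 1.02, 2.35 and 0.00 CPM against 0.00, 5.45 and 18.5 CPM (-2.44 ± 0.74, edgeR adjusted p = 0.31), at levels near the floor of the shallow tumours. Cited1, a coactivator of oestrogen signalling, stood at 10.9, 2.55, 17.4 and 9.28 CPM against 0.00, 50.2 and 84.4 CPM (-1.92 ± 0.84). Esr1, the oestrogen receptor, differed by -0.53 ± 0.50 and Prlr, the prolactin receptor, by -0.58 ± 0.67. Of luminal genes 15 of 17 were lower, with a median of -0.41 (-0.80 without multiparous tumour 2). Krt19, a luminal keratin, stood at 273, 58.5, 276 and 72.1 CPM against 7.72, 763 and 2344 CPM (-2.32 ± 0.87, edgeR adjusted p = 0.49). The luminal median was 0.04 within the shared file layout.

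Milk protein genes separated the multiparous tumours from each other rather than from the nulliparous ones. Csn2, the beta casein, stood at 135, 26780, 50.7 and 0.00 CPM in multiparous tumours 1 to 4, against 47.0, 2317 and 5214 CPM. Csn3, the kappa casein, stood at 2032, 29680, 1229 and 457 CPM against 618, 8034 and 15810 CPM. Lalba, the lactose synthase subunit alpha-lactalbumin, stood at 33.0, 642, 20.7 and 24.7 CPM against 0.888, 57.3 and 260 CPM. Multiparous tumour 2 held the highest level of all 12 tumours for these 3 genes, and the other multiparous tumours lay below the nulliparous median. The milk list had a median of -0.03 over all tumours (11 of 20 lower) and of -2.36 without multiparous tumour 2 (19 of 20 lower). Its median was 1.03 within the shared file layout (15 of 18 higher) and 0.28 against the p95 tumours alone (13 of 18 higher). Against the d16 tumours alone it was -0.22 (12 of 19 lower), and with growth pattern as a covariate -1.53 (19 of 21 lower). Csn2 went from 1.37 ± 1.46 (edgeR adjusted p = 0.96) to -5.41 without multiparous tumour 2. Wap, the whey acidic protein, stood at 4.76, 103, 0.00 and 0.00 CPM against 0.00, 41.8 and 163 CPM. In macrophage-like cells, which are not known to make milk proteins, Csn2 was read too, at 18.9, 1922, 6.34 and 0.00 CPM in multiparous tumours 1 to 4. The milk list had a median of 0.95 there, and of -1.56 without multiparous tumour 2.

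Genes that differ with parity in the normal gland had a median of 0.01 in the tumours, with 11 of 23 tested members lower and 1, Pgr, at an unadjusted p under 0.05. Without multiparous tumour 2 the median was -0.25. In epithelial-like cells 16 of 21 were lower with a median of -0.38, which was -0.86 without multiparous tumour 2 and -0.11 without multiparous tumour 4. Tgfb3, a growth factor of involution, stood at 67.3, 117, 64.8 and 71.1 CPM against 45.0, 73.7 and 143 CPM (0.04 ± 0.29). Igf1 and Wnt4, growth signals of the gland, differed by 0.79 ± 0.57 and -0.90 ± 0.83 (edgeR adjusted p = 0.86 and 0.93). No ERBB receptor or ligand passed the test. Mouse Erbb2 stood at 44.9, 56.9, 52.1 and 55.7 CPM against 27.9, 42.3 and 92.8 CPM (0.08 ± 0.33), and Egfr differed by -0.14 ± 0.38. Mouse Erbb2 is not the human HER2 transgene, for which the tables hold 0 rows by name, and Erbb3 was too low to test. Among the ligands, Tgfa, which binds EGFR, stood at 35.7, 54.9, 44.1 and 31.9 CPM against 10.2, 16.8 and 38.6 CPM (1.27 ± 0.30, edgeR adjusted p = 0.19). Areg, the oestrogen-induced amphiregulin, differed by 0.40 ± 0.57. Of 11 tested ERBB genes 3 were lower in whole tumours, with a median of 0.14 (0.63 against the d16 tumours alone, -0.07 within the shared file layout), and 8 of 11 in epithelial-like cells, with a median of -0.29 (-0.07 without multiparous tumour 2).

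Hypoxia and glycolysis genes were higher in 18 of 21 tested members, with a median of 0.29 (0.18 without multiparous tumour 4, 0.45 without multiparous tumour 2) and 3 at an unadjusted p under 0.05. Pgk1, a glycolytic kinase, stood at 101, 137, 189 and 117 CPM against 23.2, 42.0 and 162 CPM (1.34 ± 0.40, edgeR adjusted p = 0.31). Only d16 tumour 1 among the nulliparous tumours lay above the lowest multiparous value. Pgk1 was higher in each class as well, by 1.47 ± 0.40 in epithelial-like, 1.45 ± 0.41 in macrophage-like and 1.04 ± 0.43 in fibroblast-like cells, and in macrophage-like cells the groups did not overlap. Bnip3, a mitophagy receptor induced by low oxygen, stood at 49.97, 67.1, 137 and 155 CPM against 15.2, 38.4 and 83.6 CPM (1.32 ± 0.43, edgeR adjusted p = 0.38). Egln1, the prolyl hydroxylase that senses oxygen, differed by 1.06 ± 0.26 (edgeR adjusted p = 0.22). Nckap1, Twf1 and Naa30, regulators of actin (the first 2) and an acetyltransferase subunit, completed the 10 higher genes with the smallest p, at 0.68, 1.08 and 0.99.

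Immediate early and stress genes, which respond within minutes to signals and to dissociation, were lower in 16 of 18 members (median -0.51), and in 17 of 18 both in epithelial-like (median -0.44) and in macrophage-like cells (median -0.73). The whole-tumour median was -0.21 against the d16 tumours alone (13 of 18 lower), -0.25 within the shared file layout (12 of 18) and -0.31 without p95 tumour 2. Jund, an AP-1 subunit, stood at 74.8, 56.9, 82.15 and 97.9 CPM against 73.3, 165 and 261 CPM (-1.15 ± 0.31, edgeR adjusted p = 0.26). It differed by -1.43 ± 0.39 in epithelial-like, -1.33 ± 0.45 in macrophage-like and -0.94 ± 0.27 in fibroblast-like cells, the last without overlap between groups. Zfp36, an RNA decay factor, differed by -1.04 ± 0.36 in whole tumours. Cell division genes were higher in 24 of 26 members with a median of 0.29 and none at an unadjusted p under 0.05. Their median was 0.66 against p95 tumours alone, -0.05 against d16 tumours alone and -0.19 without multiparous tumour 4. With growth pattern (solid nodular or not) as a covariate the direction turned, with 24 of 26 members lower and a median of -0.32. Mki67, the Ki-67 antigen, stood at 11.2, 35.5, 9.86 and 23.7 CPM against 7.16, 12.8 and 61.8 CPM (0.34 ± 0.51).

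The higher genes called in whole tumours were mostly processed pseudogenes, copies of spliced messages put back into the genome. They were Gm12657 (chromosome 4, 94599385 to 94599795), Gm6548 (chromosome 17, 78850792 to 78851956), Rps19-ps3 (chromosome 4, 147821777 to 147822202), Gm10548 and 1700073E17Rik. By alignment with blastn to the protein-coding transcripts of GENCODE M21, their closest genes were H3f3a, which encodes histone H3.3, Eef1a1, the elongation factor that brings aminoacyl-tRNA to the ribosome, and Rps19, Rpl29 and Rpl7, all ribosomal proteins. Reads of the 3′ end fall near the end of a message, and the part of the gene beyond its coding positions is not shown. The last 90 aligned coding positions of the copy and of its gene are given, 5′ to 3′, with the bases that differ in capitals.
Gm12657: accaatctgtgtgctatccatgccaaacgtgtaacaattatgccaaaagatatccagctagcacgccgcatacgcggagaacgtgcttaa
H3f3a: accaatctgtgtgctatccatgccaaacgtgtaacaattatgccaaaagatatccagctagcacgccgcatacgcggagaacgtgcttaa
Gm6548: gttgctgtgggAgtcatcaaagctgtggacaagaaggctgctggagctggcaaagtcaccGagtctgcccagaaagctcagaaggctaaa
Eef1a1: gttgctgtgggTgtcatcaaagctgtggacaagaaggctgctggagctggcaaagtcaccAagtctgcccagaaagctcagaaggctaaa
Rps19-ps3: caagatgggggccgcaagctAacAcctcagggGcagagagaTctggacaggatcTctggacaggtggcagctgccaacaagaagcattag
Rps19: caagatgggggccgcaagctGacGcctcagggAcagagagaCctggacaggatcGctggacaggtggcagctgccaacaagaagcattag
In this stretch Gm12657 and H3f3a differ at 0 positions, Gm6548 and Eef1a1 at 2 and Rps19-ps3 and Rps19 at 5, and over the whole aligned coding part they are 98.5, 96.7 and 95.4% identical. A read that covers none of the differing bases can be placed in the copy or in the gene, as can any read within the Gm12657 stretch. The aligner and its rule for such reads are not given in the sources used here. These calls are therefore uncertain as measures of pseudogene RNA.

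Gm12657 stood at 45.9, 60.7, 36.1 and 75.2 CPM in multiparous tumours 1 to 4 and at 0.00, 4.41 and 9.14 CPM in nulliparous tumours (3.23 ± 0.40, edgeR adjusted p = 0.0099). H3f3a differed by -0.22 ± 0.24. Of the UMIs given to either, Gm12657 took 46.6, 48.4, 42.5 and 47.4% in the multiparous tumours and 0.00, 5.28 and 12.5% in the nulliparous ones. Gm6548 stood at 137, 133, 93.4 and 174 CPM against 0.00, 14.0 and 27.5 CPM (3.11 ± 0.46, edgeR adjusted p = 0.0285), while Eef1a1 stood at 3886 ± 578 CPM (SD, n = 4) and 3907 ± 191 CPM (SD, n = 8). Gm6548 took 2.68 to 3.75% of that pair in multiparous tumours and 0.00 to 0.637% in nulliparous ones. Rps19-ps3 stood at 99.6, 79.1, 78.9 and 215 CPM against 9.46, 18.5 and 51.9 CPM (2.40 ± 0.40, edgeR adjusted p = 0.042), and Rps19 differed by -0.26 ± 0.28. Gm10548 and 1700073E17Rik differed by 3.30 ± 0.43 and 4.48 ± 0.61 (both edgeR adjusted p = 0.0099). For these pairs the share of the copy was higher in each multiparous tumour than in any nulliparous tumour.

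**Figure D5:**
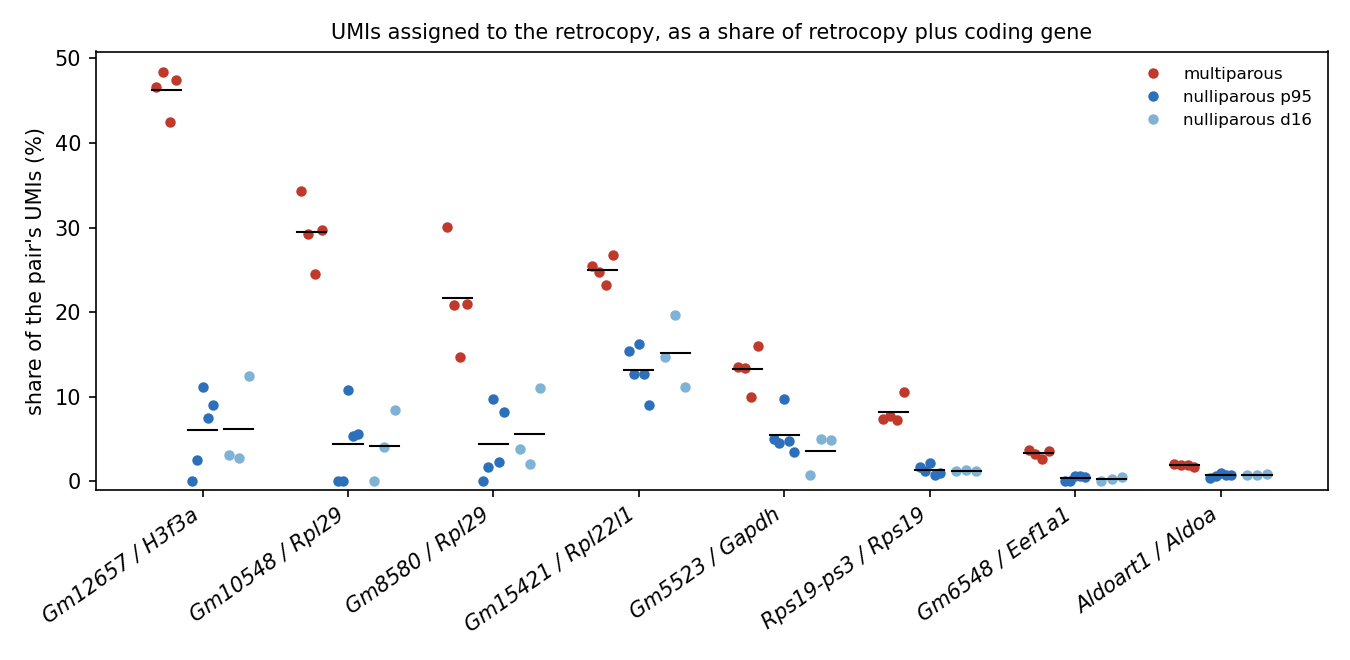
Share (%) of the UMIs of a copy and its closest coding gene that were given to the copy, for 8 such pairs; points are tumours and black bars group means. For Gm12657 the multiparous tumours lie between 42.5 and 48.4% and the nulliparous tumours at or below 12.5%.

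The pattern was not limited to the called genes. Of 40 processed pseudogenes tested in whole tumours, 27 were higher (median 0.78), 20 of them at an unadjusted p under 0.05 against 3 lower, and 11 (27.5%) lay above without overlap, against 0.552% of all genes, with 0 below. None of their closest coding genes that were tested reached an unadjusted p under 0.05 (32 copies, median -0.04). The counts over the 40 include the 5 called copies. All processed pseudogenes together took 0.227, 0.216, 0.195 and 0.343% of UMIs in multiparous tumours 1 to 4. In nulliparous tumours they took 0.138 to 0.316%, so the groups overlapped and the pattern is one of certain copies. In 16 of 31 pairs with enough UMIs the share of the copy was higher in every multiparous tumour than in every nulliparous tumour, and in 0 it was lower. They include Aldoart1, an intronless copy of Aldoa (1.65 to 2.07% against 0.429 to 0.954%), and Gm12504, a copy of Ptma (11.0 to 14.0% against 3.40 to 8.70%). Gm15421, a copy of Rpl22l1 (23.2 to 26.8% against 9.02 to 19.6%), is another. For 4931440P22Rik and Rpl29 the copy took 5.36 to 7.14% in multiparous tumours and 0.00, 18.4 and 22.3% (lowest, median, highest) in nulliparous ones. Only p95 tumour 1, with 0 UMIs of this copy, lay below the multiparous tumours there. Such a zero in a shallow tumour prevents a separation below and cannot prevent one above. Gm6548 was higher at a like size in every class, by 2.67 ± 0.49 in epithelial-like cells, 3.04 ± 0.48 in macrophage-like cells (edgeR adjusted p = 0.0119) and 2.72 ± 0.31 in fibroblast-like cells (edgeR adjusted p = 0.00616). The macrophage-like call ended without multiparous tumour 1 or 4 (adjusted p = 0.0594 and 0.0850), and the fibroblast-like call without multiparous tumour 1 (0.0589). Gm12657 differed by 3.11 ± 0.59 in epithelial-like and 3.01 ± 0.48 in fibroblast-like cells. Within the shared file layout Gm12657, Gm10548, 1700073E17Rik and Gm6548 were the genes called, by 2.82, 2.95, 4.38 and 2.60. Gm12657, Gm10548 and 1700073E17Rik were called in all 12 fits that left out 1 tumour, Gm6548 in 5 and Rps19-ps3 in 2. The remaining called gene was Rnps1, a splicing activator on chromosome 17 (24414565 to 24425901). It stood at 8.84, 5.87, 11.3 and 14.4 CPM against 0.00, 1.67 and 3.86 CPM (2.56 ± 0.41, edgeR adjusted p = 0.042), and was called in 4 of those 12 fits. The lowest and highest nulliparous values are of p95 tumour 1 and d16 tumour 1, where 3 UMIs equal 25.3 and 11.6 CPM. These tumours do not resolve the multiparous level, nor that of 1700073E17Rik, whose highest nulliparous value is also of d16 tumour 1. With tumours of 1 title number summed, Gm12657, Gm10548 and 1700073E17Rik were called (edgeR adjusted p = 0.0391 for each), and Gm6548, Rnps1 and Rps19-ps3 were not (0.0570, 0.0950 and 0.132).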

How the data were processed

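Each deposited file is a table of 1 tumour with raw, whole-number UMI counts, genes by cell barcodes. Per the labels, cells were isolated on a ddSEQ instrument, libraries were made with the SureCell WTA 3′ kit, and libraries of the same tumour were merged before deposit. Seurat 3.0.2 and GRCm38 appear in the submitters' processing notes, with no role given. The aligner, annotation and cell calling are not given in the sources used here. In 8 files, 27 gene names had become dates, and they were restored from the row order of the intact files. The tables list 0 mitochondrial genes.

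Barcodes under 200 detected genes were dropped, which left 7366 of 8486. Clusters came from scanpy 1.11.5 (2000 variable genes, 30 components, 15 neighbours, Leiden resolution 1) and were named from fixed marker sets. The condition that a name needs 3 markers each detected in 10% of cells was set after the data were seen. The 363 predicted doublets (4.93%) stayed in, and free RNA was not removed. No table repeated another, and tumours shared at most 3 barcodes. UMIs were summed per tumour, or per class with at least 20 cells in 3 tumours of each group, and tested with edgeR 4.0.16 (quasi-likelihood, filterByExpr, TMM, Benjamini-Hochberg). The SE comes from the fold and the F statistic. Shares and depth were tested by exact permutation (scipy 1.17.1). T or NK-like, neutrophil-like, dendritic-like, pericyte-like and endothelial-like cells were too few to test genes in. On simulated counts for whole tumours the fit recovered 22, 100 and 100% of genes changed by 1, 2 and 3 log2 units. In epithelial-like cells it recovered 7.46, 74.5 and 97.4%. These percentages describe the simulated counts only, and recovery for the measured genes was not tested. In whole tumours Il21r (log2 difference -3.05) was called, while Cd74 (-2.56), Cxcl10 (-2.40) and Cd3d (-4.57) were not.

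The members and lists were chosen with earlier results of these data known. Named genes were all calls in whole tumours, the 10 smallest p in each direction among genes at or above 4 average log2 CPM, at most 4 genes from every list described, and a panel of receptor, milk, keratin, hormone and immune genes. Per class they were the calls, or these and the 5 smallest p. The processed pseudogenes beyond the calls were chosen after their values were seen. Of 27 lists, 15 are described. Alternatives were DESeq2 1.42.0, RLE factors, no low-count filter, other cell filters, resolution 2 and doublet removal. Others were growth (solid nodular or not) or layout as covariates, fits on part of the tumours, and fits without each tumour in turn. Removing doublets from whole tumours, and joining unnamed clusters to their closest class for the shares, were added after seeing the data. Closest genes were found with blastn 2.17.0 and GENCODE M21. Promoters are from RefSeq.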

Additional observations from a re-analysis of the deposited data

Results flagged for a closer look

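The values here are tumours that lay apart from the rest of their group by a gap large against the range of the group. Such gaps were looked for in 196 groups of values, and chance alone gives one in about 1 of 20 groups. Multiparous tumour 2 had the most Csn1s2b (611 CPM, next multiparous 1.02 CPM), Lalba (642 CPM, next 33.0 CPM), Tgfb3 (117 CPM, next 71.1 CPM) and Glycam1 (1.28 CPM, others 0.00 CPM) of its group, and the least Isg15 (5.62 CPM, next 11.7 CPM). Multiparous tumour 4 had the most Naa30 (141 CPM, next 59.1 CPM) and the least Psmb8 (59.8 CPM, next 91.6 CPM). Multiparous tumour 1 had the least Aif1 (14.3 CPM, next 23.5 CPM).

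Among nulliparous tumours, d16 tumour 1 had the most Mki67 (61.8 CPM, next 17.3 CPM) and 1700073E17Rik (3.86 CPM, next 1.06 CPM), and the least Krt19 (7.72 CPM, next 337 CPM) and Foxa1 (0.00 CPM, next 5.41 CPM). A count of 3 UMIs in that tumour equals 11.6 CPM, so its Krt19, Foxa1 and 1700073E17Rik values rest on under 3 UMIs. In p95 tumour 1, H2-M3 was highest (84.4 CPM, next 28.6 CPM) and Aurkb lowest (0.00 CPM, next 4.09 CPM), with 3 UMIs there equal to 25.3 CPM. The lowest Uba7 (12.0 CPM, next 20.7 CPM) and Csn2 (47.0 CPM, next 896 CPM) were in p95 tumour 5. The share of endothelial-like cells (3.85%, next 1.58%) and of pericyte-like cells (6.0%, next 1.63%) was highest in p95 tumour 4.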

How the results depend on the processing

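In whole tumours, where 9 genes were called, DESeq2 called 157 (25 higher and 132 lower). Counts were 5 with all deposited barcodes and 5 with tumours of 1 title number summed, and 4 with file layout as a covariate, within the shared layout, and without the 2 shallowest tumours or at 15 to 17 weeks, which keep the same tumours. Counts were 0 with p95 tumours or d16 tumours as the only controls and 0 with growth pattern as a covariate. Leaving out each tumour in turn gave 3 to 20 calls. The highest was without d16 tumour 1, and 3 were called without multiparous tumour 1, 3 or 4, p95 tumour 1, d16 tumour 2, d16 tumour 3 or p95 tumour 5, and 5 without p95 tumour 2. Fewer tumours were then tested, and the cause of each shift was not tested. Epithelial-like cells went from 0 calls to 10 with DESeq2. Macrophage-like cells, with 1 call, gave 8 with DESeq2, 53 with no low-count filter, 2 within the shared layout, 0 with at least 50 cells per tumour and 0 to 3 when a tumour was left out. Fibroblast-like cells, with 2 calls, gave 12 with DESeq2, 46 with no low-count filter, 1 within the shared layout, 1 with at least 50 cells per tumour and 0 to 4 when a tumour was left out. The difference in pericyte-like share ranged from 1.75 to 3.0 percentage points when a tumour was left out. No value changed direction with a call. For single genes 2368 values kept their side of the threshold, 57 passed it newly and 128 no longer did. No paired analysis was possible because the replicate numbers were given in accession order and pair no tumours. Depth limits p95 tumour 1 and d16 tumour 1 most in whole tumours and macrophage-like cells, and multiparous tumour 4 in epithelial-like cells.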

Other observations

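Lists not described above gave these medians in whole tumours, with no member called. Squamous and keratinising genes were lower in 11 of 15 members (median -0.68), neutrophil genes in 9 of 10 (median -0.80), chemokines in 18 of 23 (median -0.56) and glutathione and oxidative defence genes in 17 of 23 (median -0.21). Collagen and matrix genes were higher in 19 of 24 (median 0.28), endothelial genes in 13 of 16 (median 0.30), and basal and myoepithelial genes in 10 of 17 (median 0.27). Involution genes were lower in 18 of 28 (median -0.08). The median over epithelial-mesenchymal transition genes was 0.18, over lipid synthesis genes 0.12, over ERK output genes 0.01 and over cytosolic ribosomal protein genes 0.06. In fibroblast-like cells, 23 of 34 ribosomal protein genes were lower, 5 of them at an unadjusted p under 0.05, with a median of -0.16, and chemokines were higher in 8 of 13 (median 0.35).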
